A study of Homo sapiens with 9 samples.

Results

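The hypoxia response genes examined here are 33 genes that many cell types switch on when oxygen falls, among them the pH regulator CA9, the angiogenic factor VEGFA and the glucose transporter SLC2A1. They were taken by symbol from the deposited tables, through the Ensembl identifiers of the rows. All 33 were matched among 57820 identifiers, and all 33 were among the 18618 genes with enough counts to be tested. They were followed across 9 RNA-seq libraries of xenograft tumours. The tumours grew in immunodeficient nude mice from human A375 melanoma cells, an established line with a BRAF mutation, and were taken at day 30. In 1 group of 3 libraries the cells carried a doxycycline (Dox) inducible wild-type RNF4 construct and the mice received no Dox. In the second group the same RNF4 construct was induced with Dox in the drinking water from day 3 after injection. In the third group the construct was the catalytically inactive RING mutant of RNF4, C159A, with the same Dox schedule. Each library pooled 2 similar tumours, so each group of 3 libraries held 6 tumours. The labels do not say whether tumours of different libraries came from different mice, and p-values measure only the spread between these libraries. A GFP-expressing control is named in the series text, but the titles of all libraries without Dox give the uninduced RNF4 construct. The mutant group therefore differs from the uninduced group in construct and in Dox at once.

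The count columns bear numbers that match no sample title, so a library is named here by its column: T1, T4 and T12 were RNF4 without Dox, T2, T5 and T13 were RNF4 with Dox, and T3, T6 and T14 were labelled RING mutant with Dox. Values below follow that order within each group, and where 3 sets of values stand together they are RNF4 without Dox, RNF4 with Dox and the mutant label, in that order. Total counts ran from 16416426 to 28934692 per library. RNF4 itself stood at 33.4, 52.0 and 43.2 CPM (counts scaled to a common library size) without Dox, at 380.1, 413 and 454 CPM with RNF4 and Dox, and at 47.0, 559 and 63.5 CPM in the mutant-labelled libraries. T3 and T14 thus held RNF4 RNA near the uninduced level, against their label, and every direction drawn below from the mutant-labelled libraries carries that limit. T1 and T2 gave 17.1% and 10.6% of their counts to 40 ribosomal protein genes, against 4.25% to 6.2% in the other 7 libraries. T13 and T14 held the highest sums of 11 fibroblast markers (3661 and 4140 CPM, against 697 to 2453 CPM elsewhere) and of 14 skeletal muscle markers (226 and 833 CPM, against 15.6 to 116 CPM elsewhere). Of the melanoma markers, TYR and DCT were at or near 0 in the 8 libraries other than T14, while SOX10, AXL and PRAME were present in all 9. Whether reads of the mouse host were separated from human reads is not given in the sources used here.

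Cells sense oxygen through prolyl hydroxylases of the EGLN family, which mark the alpha subunits of the hypoxia-inducible factors (HIF) for binding by VHL and for destruction while oxygen is present. When oxygen is scarce the alpha subunits persist, pair with ARNT and bind a short core motif in their target genes, raising glucose uptake, vessel growth signals, acid export, collagen processing and turnover of mitochondria. Several targets, EGLN3 among them, feed back on the same pathway, and solid tumours often express many of these genes because their blood supply is uneven. RNF4 is a ubiquitin ligase that recognises proteins carrying SUMO chains, and its RING domain carries the catalytic activity that the mutant lacks.

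The core motif of the hypoxia response element was searched as ACGTG or GCGTG on either strand, with overlapping matches counted as 1 site, so that the E-box CACGTG counts once. RefSeq windows on GRCh38.p14, from 250 bases before to 50 after a transcript start, were at hand for 25 of the 33 genes, in 36 windows. Windows for VEGFA, SLC2A3, LOXL2, NDRG1, BNIP3L, JMJD6, STC1 and HILPDA were not analysed here. At least 1 core motif lay in 32 of the 36 windows, or 88.9% (Wilson 95% interval 74.7% to 95.6%), compared with 59.1% of 17596 windows of the tested genes and 48.4% of all 35116 windows. At least 2 sites lay upstream of the start in 47.2% of the members' windows, compared with 22.2% of the windows of tested genes. CACGTG, which other basic helix-loop-helix factors also bind, was found in 16.7% and 7.93% respectively. EGLN3 and P4HA2 were the members with a window and no match in any window. PDK1 and MXI1 had a window with no match and other windows with a match. Some genes gave several overlapping windows, so these windows are not independent, although the interval treats them so. Counted by gene, 23 of 25 members (92.0%) had a site in any window, beside 68.3% of 12121 tested genes. A match describes the letters only.

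The 5 stretches below are the members' upstream bases with the most core motifs and, where motif numbers tied, the lowest p over the 3 groups, cut to bases outside annotated exons. Capitals mark the core motif. All are written 5′ to 3′ on the strand of the gene. BNIP3, which recruits mitochondria for autophagy, had 5 sites (chr10:131982014-131982173, minus strand). DDIT4, an inhibitor of mTOR signalling, had 3 sites (chr10:72273674-72273919, plus strand), as had the lysyl hydroxylase gene PLOD2 (chr3:146161185-146161434, minus strand, inside an intron of a longer annotated transcript) and the histone demethylase gene KDM4B (chr19:4968863-4969112, plus strand). LOX, which crosslinks collagen and elastin, had 2 (chr5:122078361-122078509, minus strand).
BNIP3: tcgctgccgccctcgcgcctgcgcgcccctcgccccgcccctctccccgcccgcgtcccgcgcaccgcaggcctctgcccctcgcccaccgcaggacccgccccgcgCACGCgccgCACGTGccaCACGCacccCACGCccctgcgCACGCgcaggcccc
DDIT4: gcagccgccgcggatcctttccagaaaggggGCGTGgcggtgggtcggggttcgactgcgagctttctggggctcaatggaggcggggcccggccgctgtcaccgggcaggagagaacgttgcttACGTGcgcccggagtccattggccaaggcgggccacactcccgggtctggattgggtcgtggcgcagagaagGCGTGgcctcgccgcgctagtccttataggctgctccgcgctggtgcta
PLOD2: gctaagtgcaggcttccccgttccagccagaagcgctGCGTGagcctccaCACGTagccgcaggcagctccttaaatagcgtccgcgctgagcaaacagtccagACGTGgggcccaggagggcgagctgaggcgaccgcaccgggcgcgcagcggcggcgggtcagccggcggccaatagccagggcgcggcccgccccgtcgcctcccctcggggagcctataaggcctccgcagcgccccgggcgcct
KDM4B: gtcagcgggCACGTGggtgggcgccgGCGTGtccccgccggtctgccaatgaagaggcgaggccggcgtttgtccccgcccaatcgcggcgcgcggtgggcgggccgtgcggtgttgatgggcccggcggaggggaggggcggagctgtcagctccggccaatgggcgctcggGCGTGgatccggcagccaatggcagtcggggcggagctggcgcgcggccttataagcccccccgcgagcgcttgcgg
LOX: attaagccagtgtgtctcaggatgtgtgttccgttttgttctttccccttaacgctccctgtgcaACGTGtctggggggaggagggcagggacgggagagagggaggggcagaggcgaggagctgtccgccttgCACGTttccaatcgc
KDM4B, with as many sites as DDIT4 and PLOD2, averaged 55.1 ± 14.9 CPM with RNF4 and 51.3 ± 3.78 CPM under the mutant label (SD, n = 3). In the same order, BNIP3 averaged 321 ± 82.4 and 211 ± 42 CPM and DDIT4 206 ± 60.4 and 147 ± 10.6 CPM. PLOD2 averaged 304 ± 47.3 and 239 ± 20.2 CPM and LOX 14.8 ± 5.9 and 5.5 ± 4.1 CPM.

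All members were expressed, over a wide range. As CPM per kilobase of annotated exon, NDRG1, a differentiation-linked gene and the most abundant member, averaged 164 over the 9 libraries. CA9, the membrane carbonic anhydrase that helps move acid out of the cell, followed at 117.5 and SLC2A1 at 97.9. The collagen modifier PLOD1 reached 86.4, DDIT4 85.3 and the collagen prolyl hydroxylase subunit P4HA1 56.5. The median member stood at 30.8. KDM4B (3.73), LOX (1.92), EGLN3 (1.15) and the second carbonic anhydrase of the list, CA12 (0.971), were the lowest. CA12 still had 1415 counts in all, the fewest of any member. The highest library exceeded the lowest by a ratio of 2.1 for the median member, from 1.32 for the dioxygenase JMJD6 to 7.78 for LOX, and 18 of the 33 exceeded a ratio of 2.

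No member passed an adjusted p of 0.05 in any comparison by edgeR's quasi-likelihood test, in which 3 group means were fitted to all 9 libraries. The share of all tested genes that passed was 0% in each of the 3 comparisons, and 0% in the test of any difference among the groups. DESeq2 also called 0 members. RNF4 itself, whose mean was 42.9 ± 9.32 CPM uninduced and 416 ± 37.2 CPM induced (SD, n = 3), with no overlap, had a fitted change of 3.28 ± 0.84 (log2, SE) and was not called either (edgeR unadjusted p = 0.00304, adjusted p = 0.999977). Its mutant-labelled libraries, from 47.0 to 559 CPM, enter the same fit. The lack of a call for a member is therefore not evidence that its level did not differ. The authors' deposited tables called 3, 8 and 19 of 16002 genes in the 3 comparisons, and 0 of the members were among them. The lists are therefore described below by direction, by overlap between groups and by unadjusted p, beside the same figures over all genes.

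RNF4 with Dox and RNF4 without Dox share the construct and differ in Dox, so the drug and the rise in RNF4 RNA came together. The part of Dox itself in the changes was not tested. The libraries hold RNA only, so the level of RNF4 protein was not tested either. The words "on induction" name this comparison and carry both limits. Here 29 of 33 members had a fitted log2 change above 0, compared with 44.3% of all genes tested, and the median member change was 0.14 (log2), beside -0.03 for all genes. The 4 below 0 were ANKRD37, P4HA2, KDM4B and PFKFB4. In this comparison 0 members had an unadjusted p under 0.05 in either direction, beside 0.134% (higher) and 0.462% (lower) of all genes. ADM, the vasodilator peptide adrenomedullin, had the lowest member p at 0.0793, with a log2 change of 0.53 ± 0.27 (SE) and an adjusted p of 0.999977 (edgeR), the value all members shared. For 2 members, ERO1A and JMJD6, all 3 induced libraries lay above all 3 uninduced ones, as did 0.875% of all genes. The other way lay 0 members, beside 1.44% of all genes. Without T5 the count above 0 was 19, beside 45.3% of all genes, and the median 0.04. Without T13 the median was 0.25, and 8 members lay wholly higher, as did 2.45% of all genes once that library was out. Leaving out T12 gave 5 members wholly higher, beside 3.57% of all genes. Leaving out T1, T4, T2 or T5 alone gave 1 each, beside 7.25%, 5.19%, 3.09% and 3.49% of all genes. Without T1, and also without T5, 1 member lay wholly lower, beside 6.47% and 3.33%. Without T1 and T2 together the median was 0.04, and 1 member lay wholly higher and 1 wholly lower, beside 10.1% and 10.8%.

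RNF4 with Dox and the mutant-labelled libraries share the Dox schedule and differ in the construct, by their labels, although RNF4 RNA in T3 and T14 was near the uninduced level. A fitted change above 0 was found for 31 of 33 members, compared with 55.8% of all genes, with a median of 0.38 (log2) beside 0.03. The 2 below 0 were the lysyl oxidase relative LOXL2 and the secreted hormone STC1. ADM and LOX had an unadjusted p under 0.05, both higher with RNF4, and 0 members had one in the other direction. Over all genes those shares were 1% and 0.344%. For 7 members, ADM, CA12, SLC2A1, ERO1A, LOX, KDM3A and BHLHE40, the 3 RNF4 libraries lay wholly above the 3 mutant-labelled ones, as did 2.71% of all genes. Wholly below lay 0 members, beside 2.27% of all genes. The adjusted p was 0.999884 (edgeR) for every member. With fewer libraries every gene separates more easily, so the share of all genes is given for the same libraries. Without T13, 24 of 33 members lay wholly higher with RNF4, beside 7.04% of all genes. Without T3 the number was 11, beside 6.3% of all genes, and without T14 it was also 11, beside 8.81%. Without both T3 and T14, the libraries low in RNF4, 33 of 33 members were above 0, beside 59.9% of all genes, and the median was 0.41. T6 then stood alone for the mutant, and its spread was assumed to be that of the other groups.

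The mutant-labelled libraries were also set beside RNF4 without Dox. Only ERO1A, LOXL2, JMJD6 and STC1, 4 of 33 members, had a fitted change above 0, compared with 43.2% of all genes, and the median was -0.20 (log2) beside -0.04. As in the first comparison, 0 members had an unadjusted p under 0.05, beside 0.365% (higher) and 1.38% (lower) of all genes. ADM, SLC2A1, PFKFB4, HILPDA and AK4, 5 members, lay wholly lower in the mutant-labelled libraries, as did 2.58% of all genes, and 0 lay wholly higher, beside 1.2% of all genes. The adjusted p of every member was 0.999959 (edgeR). Without T1, 16 members lay wholly lower, beside 9.37% of all genes. Without T14 it was 9 members, beside 7.41%, and without T4 it was 8, beside 6.74%. Without T12, 7 members were above 0, beside 48% of all genes. Without T3 and T14 together, 1 member was above 0, beside 36.7% of all genes, and the median was -0.26. The 3 comparisons share libraries in pairs, so their directions are not independent of one another.

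**Figure D1:**
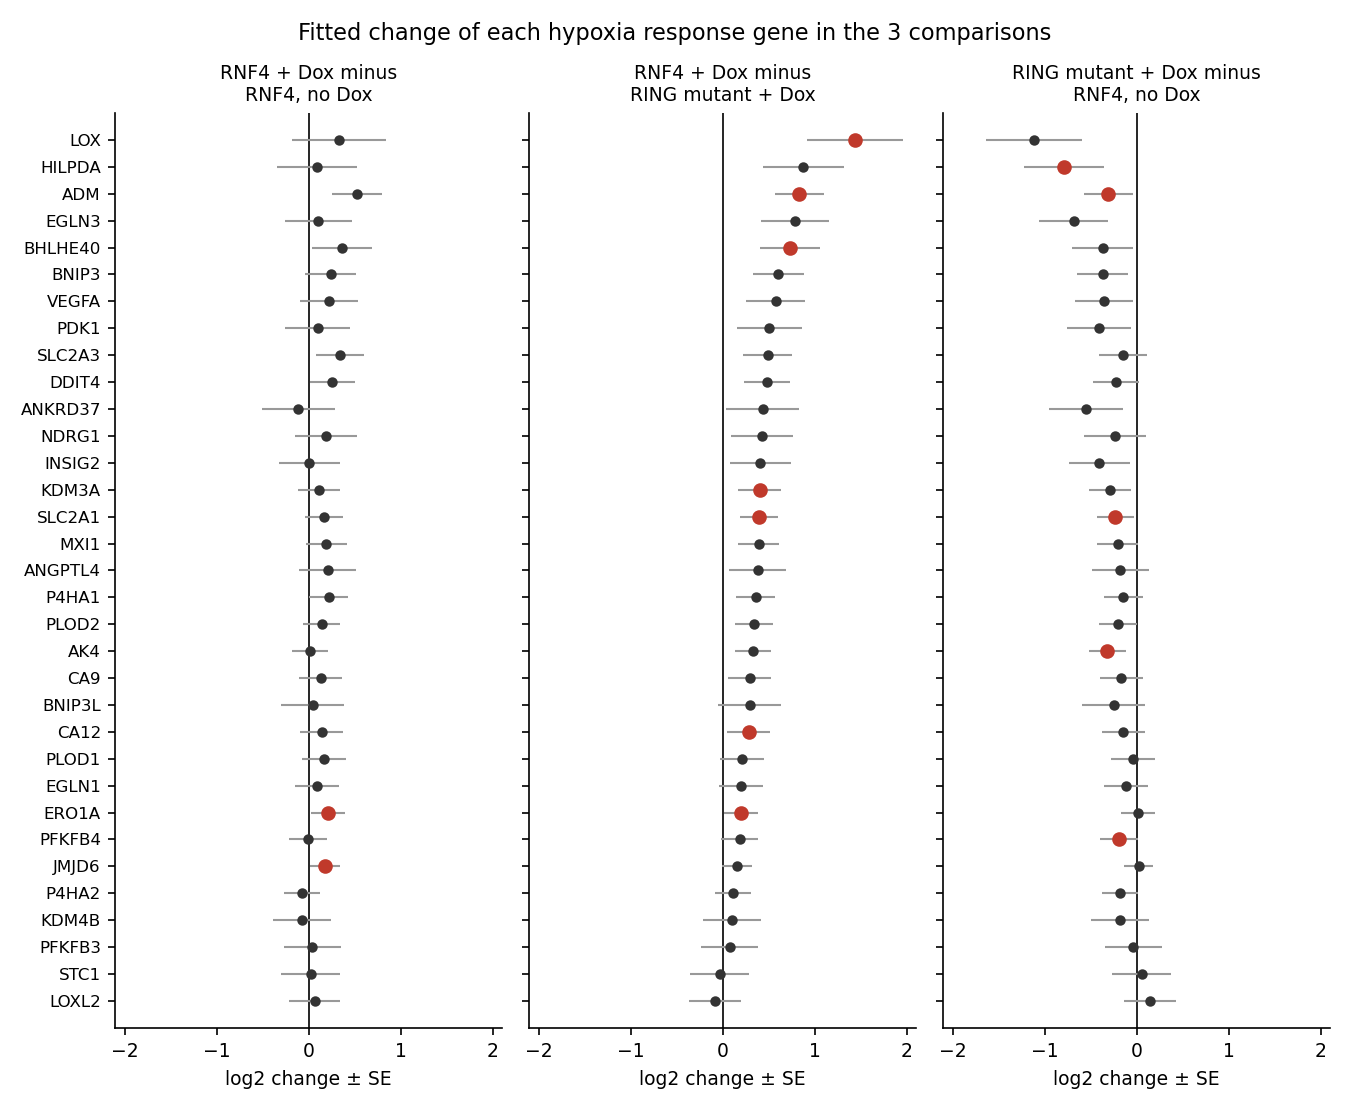
Fitted log2 change with its standard error for each of the 33 genes in the 3 comparisons, genes ordered by the comparison of RNF4 with the mutant label. Large red points mark the 2, 7 and 5 members whose groups did not overlap, and most points in the middle panel lie to the right of 0.

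Among the ligands and hormones, ADM had the lowest p. Its level was 109.9, 124 and 132 CPM without Dox, 174, 241 and 109.6 CPM with RNF4 and 92.7, 102 and 100 CPM in the mutant-labelled libraries. T2 and T5 stood above the other 7 libraries, T13 lay beside T1, and all 3 mutant-labelled libraries lay below both other groups. The change from the mutant label to RNF4 was 0.83 ± 0.27 (log2, SE; edgeR unadjusted p = 0.0117, adjusted p = 0.999884), and that from no Dox to the mutant label was -0.31 ± 0.27. Without T5 the first was 0.53, and the change on induction was 0.22. VEGFA, the main vessel growth factor, stood at 127, 152 and 218 CPM without Dox, at 162, 258 and 160.2 CPM with RNF4 and at 91.8, 122 and 175 CPM under the mutant label. T5 was highest and T3 lowest, and all 3 groups overlapped. Its RNF4 to mutant change of 0.58 ± 0.32 (log2, SE; unadjusted p = 0.101) became 0.31 without T5 and 0.38 without T3. ANGPTL4, which inhibits lipoprotein lipase, gave 74.9, 73.7 and 109 CPM, 102, 135 and 59.3 CPM and 68.1, 66.5 and 93.1 CPM in the same order, with T5 highest and T13 lowest of all 9. STC1 gave 163, 187 and 303 CPM, 282, 215 and 167 CPM and 288, 161 and 230.4 CPM, and its groups overlapped.

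Of the acid-handling pair, CA9 stood at 163, 201 and 227 CPM without Dox, 213, 269.7 and 165 CPM with RNF4 and 181, 161 and 186 CPM under the mutant label. Group means were 197 ± 32.2, 216 ± 52.6 and 176 ± 13.03 CPM (SD, n = 3), and T13 lay inside the range of the mutant-labelled libraries. The RNF4 to mutant change of 0.30 ± 0.23 (log2, SE) was 0.10 without T5 and 0.46 without T13. CA12 was scarce, and it varied less among the RNF4 libraries, at 7.99, 7.84 and 7.61 CPM, all above the 6.64, 6.08 and 6.53 CPM of the mutant-labelled libraries. Without Dox it spanned both, at 5.54, 7.57 and 8.10 CPM.

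For glucose uptake and its control, SLC2A1 separated the mutant label from both other groups. It stood at 452, 462 and 485 CPM without Dox, 546, 563 and 462 CPM with RNF4 and 419.5, 383 and 391 CPM under the mutant label. The mutant-labelled libraries lay below all 6 others, while T13 fell among the uninduced libraries. Changes were 0.40 ± 0.21 from mutant to RNF4 and -0.23 ± 0.21 from no Dox to mutant (log2, SE; edgeR unadjusted p = 0.0844 and 0.293). SLC2A3, the high-affinity transporter, stood at 129.5, 203 and 205, at 224, 291 and 167 and at 158, 155 and 174 CPM. Its change on induction, 0.34 ± 0.26 (log2, SE; unadjusted p = 0.224), was 0.12 without T5, 0.17 without T1 and 0.53 without T13. PDK1, a kinase that inhibits pyruvate dehydrogenase, stood at 189, 105 and 117, at 223, 131 and 85.4 and at 111, 108 and 90.4 CPM. T1 and T2 were its 2 highest libraries and T13 its lowest. PFKFB3 and PFKFB4 set the level of the allosteric activator of phosphofructokinase. PFKFB4 stood at 213, 225 and 247, at 209.5, 278 and 194 and at 203, 189 and 207 CPM, with the mutant-labelled values all below the uninduced ones. The change between these groups was -0.19 ± 0.20 (log2, SE). PFKFB3 stood at 38.6, 91.5 and 73.01, at 54.8, 90.1 and 64.02 and at 60.6, 64.4 and 73.3 CPM, with T1 and T2 the lowest libraries.

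EGLN1 and EGLN3 encode oxygen-sensing prolyl hydroxylases, and EGLN3 was the more variable. It stood at 8.004, 11.4 and 8.84 CPM without Dox, 12.8, 10.5 and 7.11 CPM with RNF4 and 3.73, 4.77 and 9.09 CPM under the mutant label. T3 and T6 were below all others, but T14 lay above T1, T12 and T13, so all groups overlapped. Changes were 0.79 ± 0.37 from mutant to RNF4 and -0.69 ± 0.37 from no Dox to mutant (log2, SE; edgeR unadjusted p = 0.0597 and 0.0948). Without T14 they were 1.25 and -1.14, and without T3 the second was -0.45. EGLN1 stood at 104, 169 and 126, at 124, 167 and 133 and at 132, 136 and 101 CPM. The oxygen-dependent demethylase KDM3A was tight under the mutant label, at 109, 108 and 112 CPM, below the 138, 180.4 and 118 CPM of the RNF4 libraries. Uninduced libraries gave 102, 151 and 149.5 CPM, with T1 below every other library. The RNF4 to mutant change of 0.40 ± 0.23 (log2, SE) was 0.21 without T5. JMJD6 separated RNF4 with Dox (43.1, 50.4 and 45.1 CPM) from RNF4 without Dox (38.2, 41.9 and 42.4 CPM) by less than 1 CPM, with a change of 0.18 ± 0.16 (log2, SE) that was 0.11 without T5. The mutant-labelled libraries, at 40.4, 39.05 and 44.95 CPM, overlapped both. KDM4B stood at 31.9, 70.7 and 71.4, at 40.3, 70.02 and 55.00 and at 48.3, 50.2 and 55.6 CPM, with T1 and T2 its 2 lowest libraries.

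LOX, one of the collagen-modifying enzymes, had the largest member change in both comparisons with the mutant label. Its level was 7.53, 16.8 and 10.96 CPM without Dox, 21.4, 10.4 and 12.4 CPM with RNF4 and 3.50, 2.75 and 10.1 CPM under the mutant label. T3 and T6 were below every other library, whereas T14 stood just under T5. The RNF4 to mutant change was 1.44 ± 0.52 and the change from no Dox to mutant -1.11 ± 0.52 (log2, SE; edgeR unadjusted p = 0.0212 and 0.0593), and without T14 they were 2.24 and -1.91. Without both T3 and T14 they were 2.41 and -2.09. T14 was also the library with the highest fibroblast marker sum, and fibroblasts too make LOX: the part of host RNA in these values was not tested. LOXL2 stood at 115, 197 and 242 CPM, 166, 209.6 and 204 CPM and 198, 176 and 239 CPM, with T1 lowest of all 9. P4HA1 was highest in T2, at 242, 178 and 177 CPM in the RNF4 libraries beside 167, 158 and 188 CPM without Dox and 181, 145 and 139 CPM under the mutant label. P4HA2, its paralogue, stood at 103, 118 and 147, at 119, 118 and 113 and at 116, 93.7 and 116 CPM and overlapped throughout. PLOD1 stood at 346, 466 and 524, at 504, 520.5 and 478 and at 489.5, 376 and 434 CPM, and PLOD2 at 288, 256 and 282, at 354, 295 and 261 and at 263, 229 and 226 CPM. Both had 1 library of RNF4 with Dox within the range of the mutant-labelled libraries.

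**Figure D2:**
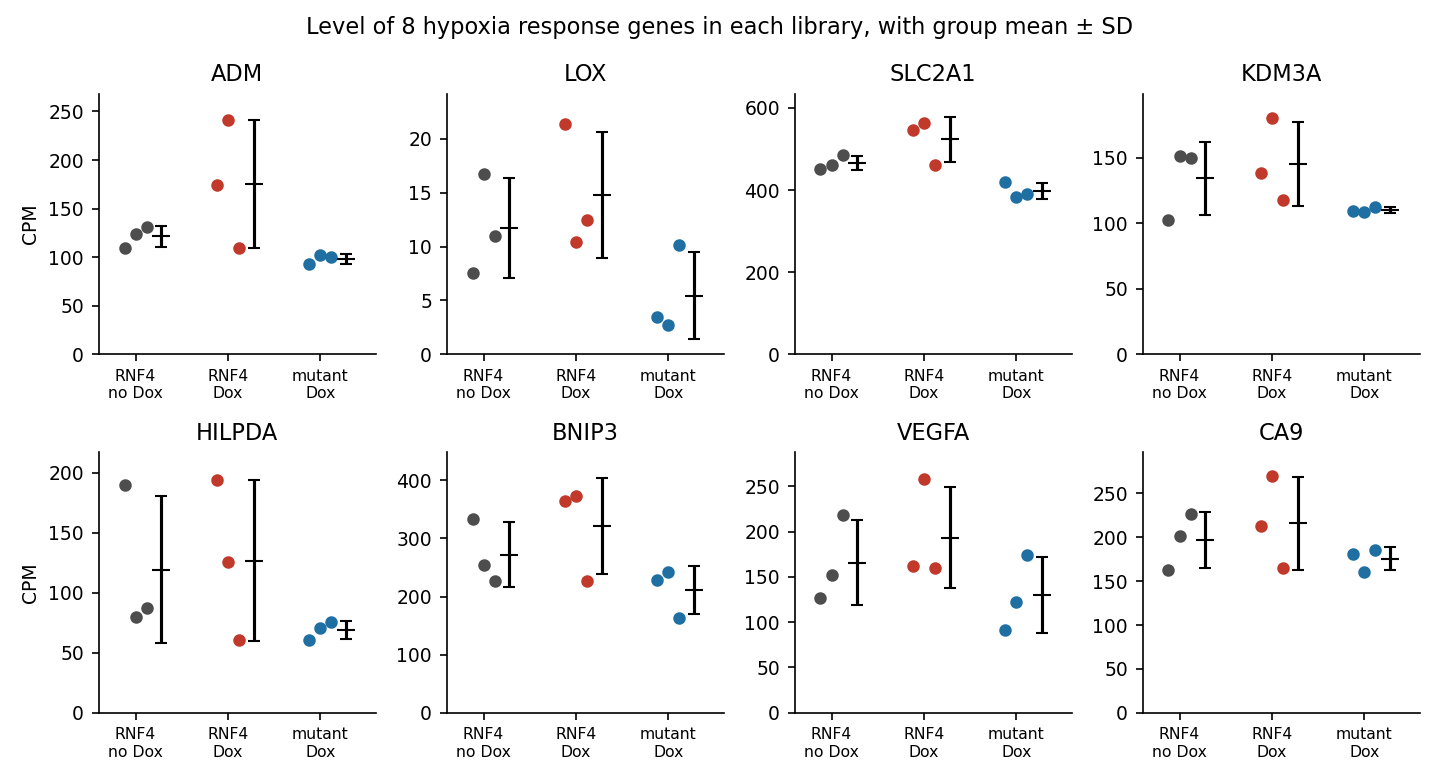
CPM of 8 members in each library (dots) with the group mean and SD (bars) for RNF4 without Dox, RNF4 with Dox and the mutant label, axes starting at 0. In ADM, BNIP3 and HILPDA the T13 dot of the RNF4 group lies well below T2 and T5, and in LOX the T14 dot lies well above T3 and T6.

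In the mitochondrial and energy group, BNIP3 stood at 334, 254 and 228 CPM without Dox, 364, 373 and 226 CPM with RNF4 and 228, 242 and 163 CPM under the mutant label. T2 and T5 were the highest libraries and T14 the lowest, with T13 close to T3. Its RNF4 to mutant change was 0.60 ± 0.28 (log2, SE; edgeR unadjusted p = 0.055), and it was 0.40 without T3 and T14. The relative BNIP3L was highest in T1 and T2, at 322, 187 and 173, at 319.5, 223 and 162 and at 236, 199 and 139 CPM. AK4, a mitochondrial adenylate kinase, lay lower in all mutant-labelled libraries (62.9, 59.4 and 51.3 CPM) than in the uninduced ones (69.8, 81.8 and 64.7 CPM), with 81.7, 79.3 and 57.5 CPM in the RNF4 libraries. The change from no Dox to mutant was -0.32 ± 0.20 (log2, SE).

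Among the stress, signalling and transcription genes, BHLHE40, a circadian repressor, had the lowest p against the mutant label. It stood at 123, 251 and 188 CPM without Dox, 208, 348 and 167 CPM with RNF4 and 158, 138 and 139 CPM under the mutant label. T5 was highest and T1 lowest, and the RNF4 libraries all lay above the mutant-labelled ones. Its change of 0.73 ± 0.33 between them (log2, SE; unadjusted p = 0.051) was 0.37 without T5. NDRG1 stood at 1109, 1977 and 1770, at 1728, 2471 and 1353 and at 1443, 1287 and 1396 CPM, so T13 lay inside the mutant-labelled range. The RNF4 to mutant change of 0.43 ± 0.34 was 0.16 without T5. DDIT4 was highest in T5 too, at 141, 200.4 and 176, at 193, 272 and 154 and at 156, 150.1 and 136 CPM. MXI1, an antagonist of MYC, gave 74.8, 85.6 and 68.9 CPM, 90.6, 106 and 65.4 CPM and 69.5, 74.7 and 54.8 CPM. ANKRD37, a small ankyrin repeat protein, was highest in T1, at 36.8, 14.9 and 14.5 CPM, with 27.3, 18.99 and 14.6 CPM and 14.99, 18.7 and 11.3 CPM in the other groups.

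ERO1A, the oxidase that recharges disulphide formation in the endoplasmic reticulum, had a narrow RNF4 group. Its level was 194, 197 and 187 CPM there, above the 140, 171 and 187 CPM without Dox and the 175, 162 and 166 CPM under the mutant label. T13 (187.1 CPM) and T12 (187 CPM) differed by about the last digit, and RLE size factors in place of TMM left 1 member wholly higher on induction in place of 2, beside 0.811% of all genes. Changes were 0.22 ± 0.18 on induction and 0.20 ± 0.18 against the mutant label (log2, SE), the first of which was 0.12 without T1. HILPDA, a lipid droplet protein that restrains lipolysis, stood at 189.8, 80.00 and 87.4 CPM without Dox, 194, 125 and 60.3 CPM with RNF4 and 60.5, 70.8 and 75.3 CPM under the mutant label. T1 and T2 were highest and T13 lowest of all 9, so the uninduced libraries all lay above the mutant-labelled ones while the RNF4 libraries did not. The change from no Dox to mutant of -0.79 ± 0.44 (log2, SE) was -0.27 without T1, and the RNF4 to mutant change of 0.88 ± 0.44 was 0.43 without T2. INSIG2, which retains the sterol sensor in the endoplasmic reticulum, was high in T1 and T2, at 78.4, 32.8 and 41.8, at 70.4, 43.3 and 39.6 and at 38.04, 39.6 and 37.7 CPM.

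**Figure D3:**
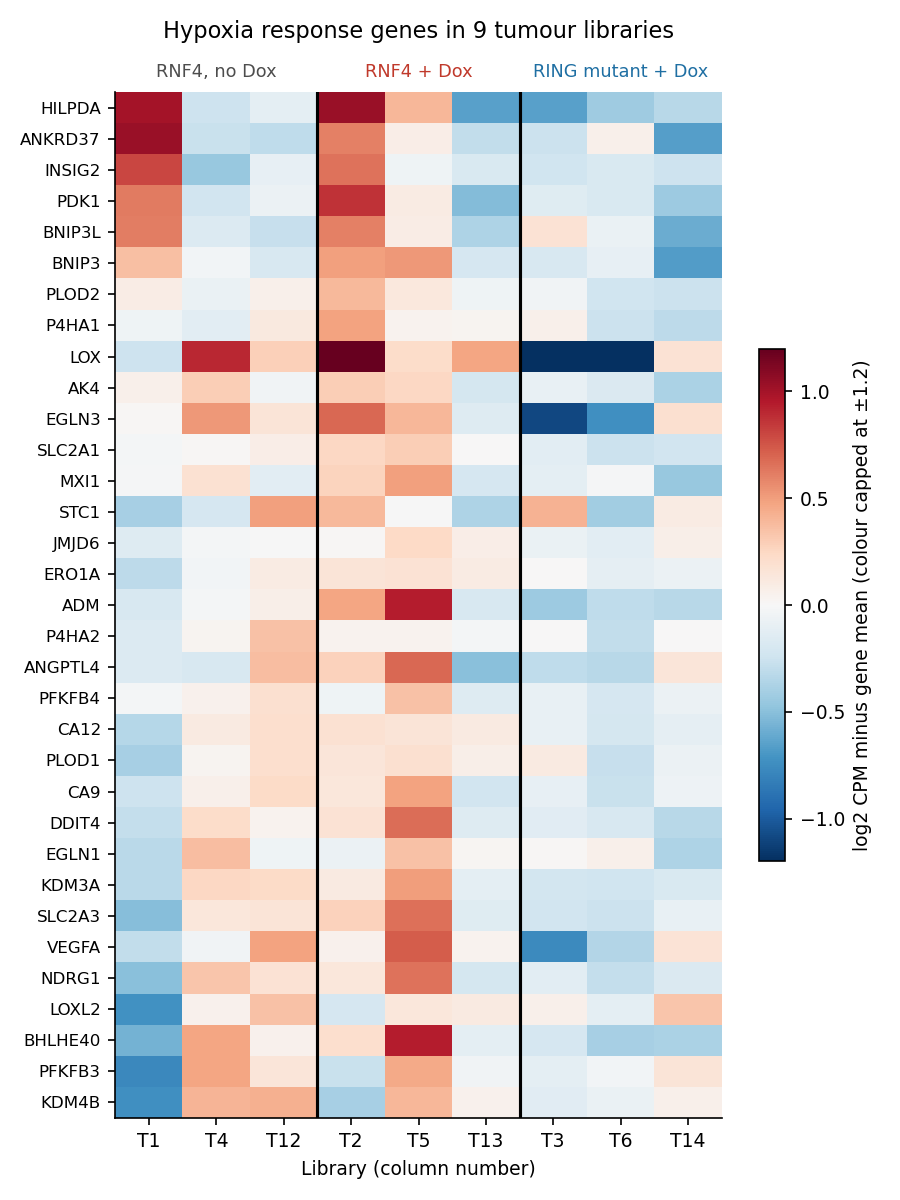
Level of each member in each library as log2 CPM minus the gene's mean over the 9 libraries, red above and blue below, colours capped at 1.2. Rows are ordered by the mean of T5, T4 and T12 minus the mean of T1 and T2. T2 and T5 are red for most rows, and T3, T6 and T14 are blue for most. T1 is red for the top rows and blue for the bottom ones, which follows from the row order.

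Library by library, the induced group held both the highest libraries and a low one. T5 was the highest of the 9 libraries for 15 members and T2 for 6, while T13 was the highest for 0 and the lowest for 3. In 27 of 33 members T13 lay below both T2 and T5, as it did for 28.5% of all genes. In 23 members T2 and T5 both lay above T13, T3, T6 and T14, as in 5.58% of all genes. These 2 patterns, and those of T1 and T14 below, were chosen after the values were seen and have no test. The mean position of the members (mean log2 CPM relative to each gene's own mean) was 0.29 in T2, 0.35 in T5 and -0.12 in T13. It was -0.10, 0.08 and 0.11 in T1, T4 and T12, and -0.20, -0.26 and -0.16 in T3, T6 and T14. Group means were 0.03 without Dox, 0.17 with RNF4 and -0.21 under the mutant label, with a pooled SD between libraries of 0.17.

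Neighbouring column numbers gave 1 library of each group to T1 to T3, to T4 to T6 and to T12 to T14, and the labels do not say whether these runs were processed together. Within them, RNF4 with Dox exceeded RNF4 without Dox for 29, 27 and 5 of the 33 members, and for 2 members in all 3 runs, beside 8.28% of all genes. RNF4 with Dox exceeded the mutant label for 28, 33 and 19 members, and for 18 (54.5%) in all 3 runs, beside 11.1% of all genes. The mutant label exceeded no Dox for 17, 4 and 3 members. In all 3 runs it was higher for 0 members, beside 5.9% of all genes, and lower for 11 (33.3%), beside 8.46% of all genes. The members' median in T12 to T14 was -0.19 for induction, 0.07 for RNF4 against the mutant label and -0.32 for the mutant label against no Dox (log2). The first of these is opposite in sign to 0.39 in T1 to T3 and 0.27 in T4 to T6. Genes of the mitochondrial genome took 6.12%, 5.68% and 7.15% of the counts in T12, T13 and T14. In the other libraries they took 2.18% to 4.05%, and their part in the members' values was not tested. With the run as a term in the fit, 0 members were called by edgeR in any comparison, and the medians were 0.13, 0.36 and -0.21 (log2).

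T1, which had the highest ribosomal protein share, divided the members. It lay below both T4 and T12 for 22 members, as for 40.6% of all genes, and above both for 7, as for 41.0% of all genes. BNIP3, BNIP3L, ANKRD37, PLOD2, INSIG2, PDK1 and HILPDA were the 7. For all of them but BNIP3, T2 also exceeded T5 and T13. Both patterns together thus held for 6 of 33 members, beside 30.8% of all genes, so the members did not exceed that share. Over all genes, T1 lay above both in 7628, and in 5738 of these T2 did so too. Ribosomal proteins had a median change of -0.47 on induction, 0.44 for RNF4 against the mutant label and -0.95 for the mutant label against no Dox (log2). Their mean position was 1.77 in T1, beside -0.61 and -0.60 in T4 and T12, and 0.91, -0.31 and -0.40 in T2, T5 and T13. The median on induction therefore leans on T1. The part of ribosomal proteins in the members' values was not tested.

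Companion lists gave the setting of the pathway. Of 17 tested genes of the oxygen-sensing machinery, 3 were above 0 on induction, 10 for RNF4 against the mutant label and 4 for the mutant label against no Dox, with medians of -0.06, 0.08 and -0.14 (log2). HIF1A RNA lay between 150.7 and 212.5 CPM in all libraries. In this list ARNT2, a partner of the alpha subunits (-0.65), and the elongin subunit gene ELOB (-0.44) had the lowest p on induction (log2 changes in brackets). Against the mutant label these were ARNT2 (-0.50) and the coactivator-binding CITED2 (0.33). For the mutant label against no Dox they were ELOB (-0.63) and RBX1 (-0.73), both parts of the VHL ligase. Without Dox, ELOB stood at 298.8, 81.1 and 71.0 CPM and RBX1 at 107.2, 18.5 and 22.3 CPM. The changes of both genes therefore lean on T1. Of 18 further tested hypoxia targets, 12, 15 and 4 were above 0 in the 3 comparisons, with medians of 0.085, 0.31 and -0.19. MIF (-0.57) and RORA (0.22) had the lowest p on induction, and CXCR4 (1.03) and CCNG2 (0.47) against the mutant label. In the last comparison these were SPAG4 (-0.76) and CCNG2 (-0.48). Of 18 glycolytic genes 16, 16 and 7 were above 0, with medians of 0.11, 0.13 and -0.02, and PFKM, GPI, PGK1, ENO2 and PKM held their lowest p. Of 16 targets of the stress factor ATF4 15, 15 and 8 were above 0, with medians of 0.24, 0.35 and -0.01. PCK2 (0.36) and ALDH1L2 (0.43), ASNS (1.14) and PCK2 (0.33), and DDIT3 (-0.79) and SESN2 (-0.30) held the lowest p in the 3 comparisons of this list. No gene of these lists passed an adjusted p of 0.05 (edgeR), and 1 further hypoxia target, SPAG4, and 1 ATF4 target, ASNS, had an unadjusted p under 0.05.

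**Figure D4:**
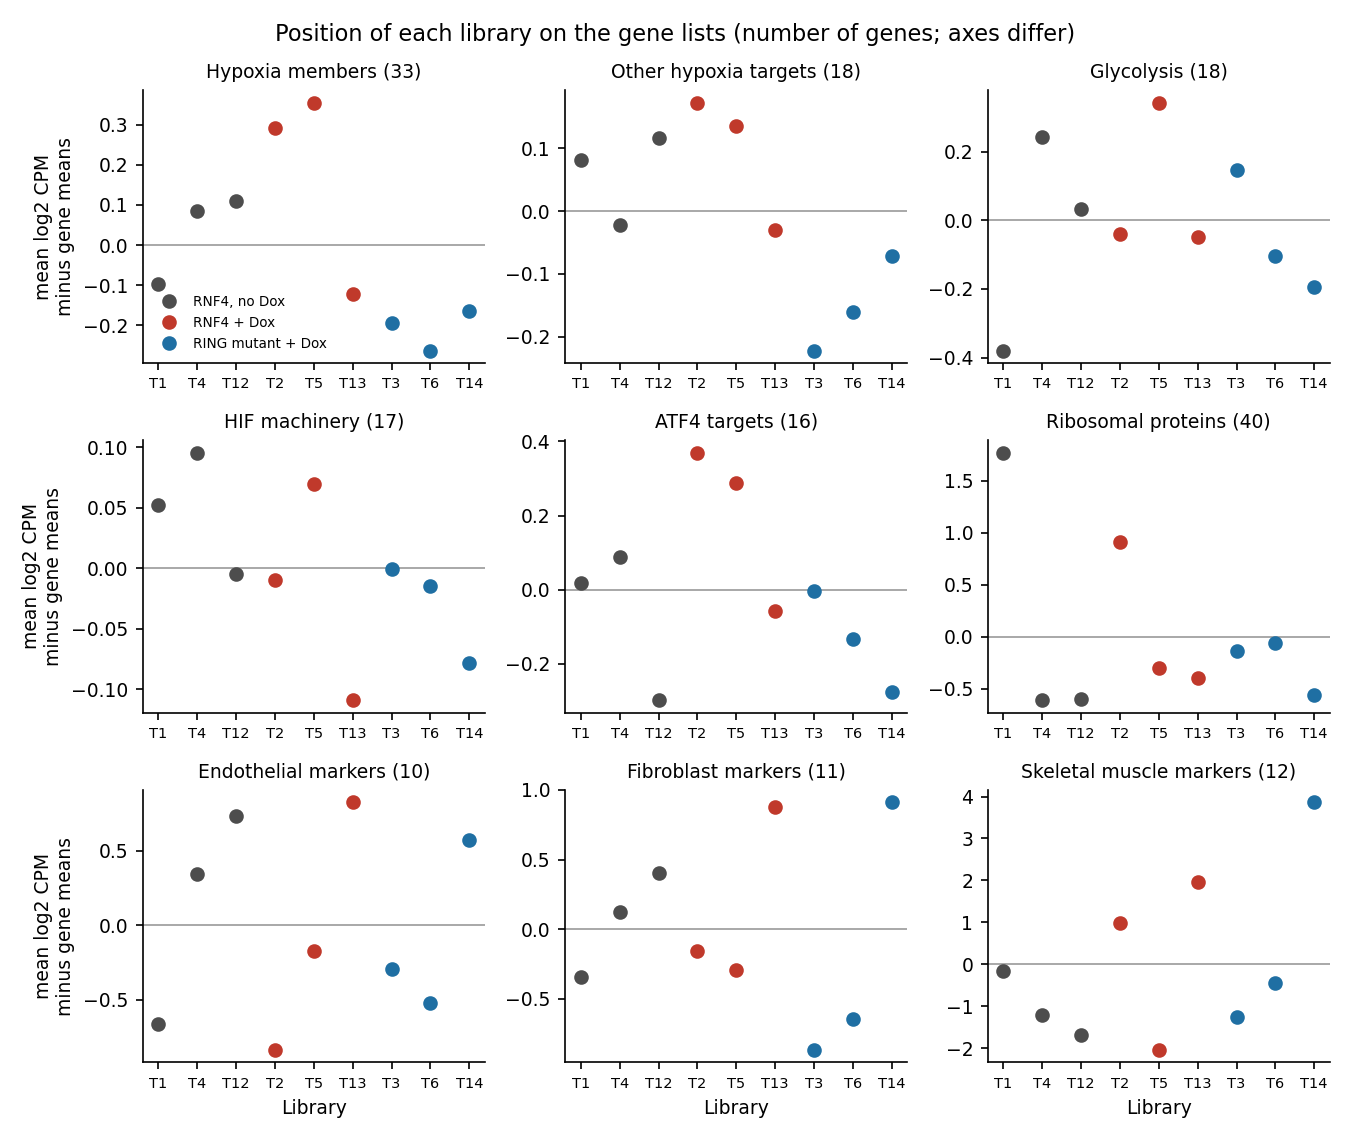
Position of each library (mean log2 CPM minus gene means) on 9 gene lists, coloured by group, each panel on its own scale. On the members T2 and T5 stand highest at 0.29 and 0.35, on the ribosomal proteins T1 and T2 stand apart, and on the fibroblast and muscle markers T13 and T14 are the highest.

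Markers of other cells also varied between libraries, summed here over the matched genes of each list. The summed level of endothelial markers was 107.5 to 215 CPM without Dox, 145 to 255 CPM with RNF4 and 123 to 224 CPM under the mutant label, over 10 of 12 markers tested. TIE1 and ROBO4 made up most of these sums, 159 and 44.8 CPM of the 224 CPM in T3, where CDH5, KDR and VWF stood at 3.38, 2.55 and 1.01 CPM. The endothelial sum therefore did not follow the other markers, and the mean position on this list was -0.29 in T3 and 0.57 in T14. Fibroblast markers, 11 of 11 tested, summed to 934 to 2453 CPM, 1190 to 3661 CPM and 697 to 4140 CPM. Leukocyte markers, 11 of 13 tested, summed to 59.9 to 103 CPM, 63.8 to 103 CPM and 66.7 to 123 CPM, with FCGR3A at 0 in every library. LYZ and ADGRE1 gave 47.8 and 34.1 CPM of the sum in T1, where PTPRC stood at 1.30 CPM. The position on this list was -0.15 in T1, -0.24 in T2 and 0.44 in T13. Skeletal muscle markers, 12 of 15 tested, summed to 17.45 to 45.8 CPM, 15.6 to 226 CPM and 22.4 to 833 CPM, and keratinocyte markers, 7 of 10 tested, to 78.4 to 271 CPM, 72.7 to 533 CPM and 106.5 to 176 CPM. Of the 271 CPM, found in T1, KRT10 alone gave 251 CPM, while KRT5 and KRT14 stood at 0.274 CPM each and the position of T1 on the list was -1.38. T13, where 27 members lay below T2 and T5, was the highest of the RNF4 libraries on all 5 lists, by the sum and by the mean position. T12 was the highest uninduced library by mean position on the endothelial (0.73), leukocyte (0.09), fibroblast (0.40) and keratinocyte (1.56) lists. On the muscle list T12 was the lowest of them (-1.69). Its position on the members, 0.11, was the highest of the uninduced libraries. T14 was the highest of the mutant-labelled libraries on all 5 lists by the mean position. It lay below T3 and T6 for 11 members, beside 37.8% of all genes, and above both for 13, beside 42.8%. In bulk tumour RNA, fewer tumour cells with the same RNA per cell and less RNA per cell cannot be told apart, and the part of these markers in the members' values was not tested. Leaving out T13 and T14 together left 25 members wholly higher with RNF4 than under the mutant label, beside 12.4% of all genes. On induction 8 were then wholly higher, beside 2.33% of all genes, and 9 were wholly lower under the mutant label than without Dox, beside 6.9%.

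Shared reads limit a few members. Exons of 18 of the 33 overlap those of another annotated gene, 15 of them on the opposite strand. The kit is directional, but the strand setting of the counting is not given in the sources used here, so reads of such pairs may not be fully apart. In 5 members, CA9, LOX, LOXL2, ANKRD37 and PFKFB4, the overlapping gene had a sizeable count of its own beside the member's. BNIP3 has 42 pseudogenes named after it in the annotation, with 1601 counts in all beside its own 52245.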

How the data were processed

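RNA of 9 libraries of pooled A375 xenograft tumours was sequenced as 50-base single reads from directional libraries. Per the submitters' processing notes, TopHat2 2.0.13, HTSeq 0.6.0 and DESeq2 1.10.1 were used with GRCh38. The annotation release is not given in the sources used here. Raw counts per gene, log2 fold changes and adjusted p-values were deposited by the authors. The 9 normalised value columns per table were not used. Count columns could be tied to groups, not to single samples. Gene names, exon lengths and overlaps came from GENCODE 29, which held 52338 of 57820 identifiers.

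Raw counts were fitted with edgeR 4.0.16 (R 4.3.3): TMM scaling, a low-count filter by group, 1 mean per group, quasi-likelihood F-tests, Benjamini-Hochberg adjustment over 18618 genes and a threshold of 0.05. CPM used TMM factors, and library positions a prior count of 2. The test was checked on simulated counts with the same fixed spread for every gene. That setting differs from these libraries, so the check does not show how often a change would be found in them. DESeq2 1.42.0 was an alternative. The members and lists were chosen with earlier results of these data known. Named genes were RNF4, all members by role, with all 9 values for set members, those with the lowest p and those that did not overlap, and the 2 genes of each companion list with the lowest p. Printed promoter stretches were trimmed of annotated exon bases after the windows were seen, which changed the choice of stretches. Without T13 and T14, and without T3 and T14, were alternatives added after seeing the data.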

Additional observations from a re-analysis of the deposited data

How the results depend on the processing

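Under 19 alternatives 0 members were called in any comparison (lowest adjusted p 0.375, edgeR, LOX against the mutant label with no low-count filter). No log2 change of a single member given above turned its sign, nor did the members' medians. The median over all genes did: without T1 it was 0.02 on induction. Without T1 and T2 it was -0.02 against the mutant label and 0.02 for the mutant label against no Dox. Changes of single companion genes, and medians of the companion and ribosomal lists, are given for the main fit only. Over all members, 11 of 33 kept their direction in every alternative on induction, 28 for RNF4 against the mutant label and 22 for the mutant label against no Dox. Genes called on induction were 3 with no filter, 3 with DESeq2 and 1 with the likelihood ratio test, with 0 to 1 when 1 library was left out. Against the mutant label they were 38, 1 and 3, and for the mutant label against no Dox 109, 4 and 5, with 1 without T1 and T2. With 1 library left out, members above 0 ran from 19 to 31 on induction and from 3 to 7 for the mutant label against no Dox. Members that did not overlap then ran from 1 to 8 on induction, from 7 to 24 for RNF4 against the mutant label and from 5 to 16 for the mutant label against no Dox. Over all genes, under the same omissions, 0.9% to 7.25% lay wholly higher on induction and 2.56% to 8.81% against the mutant label. For the mutant label against no Dox, 2.6% to 9.37% lay wholly lower. These ranges do not pair: on induction the 8 members came without T13, beside 2.45% of all genes. The 7.25% came without T1, where 1 member lay wholly higher and 1 wholly lower. Members that did not overlap on induction were 1 with RLE factors (0.811% of all genes wholly higher), 8 without T13 and T14 (2.33%) and 1 without T3 and T14 (0.99%). Against the mutant label they were 25 without T13 and T14 (12.4%) and 20 without T3 and T14 (18.2%). For the mutant label against no Dox they were 16 without T1 and T2 (9.04% of all genes wholly lower), 9 without T13 and T14 (6.9%) and 12 without T3 and T14 (13.6%), where 1 member was above 0. Fewer libraries make non-overlap easier to reach; other causes were not tested. No paired analysis was possible because the count columns carry no replicate number of the labels. The run of neighbouring column numbers, which the labels do not call a batch, was fitted as a term instead: 0 members were called, 29, 31 and 5 were above 0, and the medians were 0.13, 0.36 and -0.21 (log2). With the spread between these libraries, a large change could be missed as well as small ones: RNF4, at 3.28 on induction (log2), was not called (edgeR adjusted p = 0.999977).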
